A study of Danio rerio with 6 samples.

Results

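The transcripts described here are the Wnt ligands of the zebrafish tailbud and the nuclear factors that act downstream of them. They were taken as every row of the deposited tables named wnt3, wnt3a, wnt5b, wnt8a, lef1, tcf7, tcf7l1a, tcf7l1b, sp5a or sp5l. These 10 names cover 11 of 32520 rows, because wnt8a has 2, and 9 rows had enough reads to be tested. RNA-seq of polyadenylated RNA was made from zebrafish (Danio rerio) at 16 hours post fertilisation, using the part of the body caudal to the last somite. The sall4 morphants, 3 libraries, came from embryos injected with a morpholino against sall4, which encodes a zinc finger transcription factor. The controls, also 3 libraries, are mixed: control 1 came from embryos given a scrambled morpholino, whereas the embryos of controls 2 and 3 received no injection. The labels name no strain or mutant allele for any group and do not state separate clutches, so a p-value here speaks of the spread among these libraries, part of which may be technical. A morpholino is an antisense oligomer and its effect is a knockdown, not a deletion.

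Wnt ligands are secreted lipid-modified proteins that bind Frizzled receptors, and in the canonical pathway also Lrp5 or Lrp6, after which beta-catenin is spared from degradation and enters the nucleus. There it binds the Lef/Tcf proteins, of which Lef1 and Tcf7 act mainly as activators with beta-catenin and the Tcf7l1 proteins mainly as repressors without it. In the vertebrate tailbud canonical Wnt signals maintain mesodermal progenitors during body elongation, and the zebrafish sp5 genes are direct Wnt targets that encode zinc finger factors needed for the response. Zebrafish wnt5b acts largely outside the beta-catenin pathway and is required for tail extension.

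Total counts per library were 18626513 to 25144393 in morphants and 18687559 to 42423495 in controls. The target transcript, sall4, was measured at 974.5, 1337 and 1390 CPM (counts scaled to a fixed library size after TMM normalisation) in morphants 1 to 3, against 1110, 1312 and 1347 CPM in controls 1 to 3. A morpholino need not lower the transcript it binds, so these values do not check the injection. The morphants differed more among themselves than the controls: the median SD of log2 CPM over all tested genes was 0.59 in morphants and 0.25 in controls. Gene length ran with this spread, since the deviation of a gene from its mean over the 6 libraries correlated with its relative length, with a Spearman rho over all tested genes of −0.42, 0.43 and −0.28 in morphants 1, 2 and 3 and of −0.01 to 0.21 in controls (genes are not independent replicates). All 10 tailbud and presomitic mesoderm markers were detected, with a summed level of 15091, 6457 and 9834 CPM in morphants 1 to 3 and 8169, 10269 and 10353 CPM in controls 1 to 3. The 10 genes listed as markers of head structures summed to 18.8 to 41.2 CPM in morphants and 8.01 to 24.9 CPM in controls. Most of that sum was pax2a in every library, with 13.2 to 25.9 CPM in morphants and 4.88 to 20.4 CPM in controls. None was at 0 in every library, but en2b was at 0 in each control. The genes en2b, mab21l2 and foxg1a were higher in every morphant, and the rest overlapped. The sum was therefore not read as a measure of the dissection.

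Setting sall4 morphants against controls addresses what changes in the caudal tissue under sall4 knockdown. Among the tested members the activator gene tcf7 and both sp5 genes were measured lower in every morphant than in any control. For wnt3, wnt3a, wnt5b, lef1, tcf7l1a and tcf7l1b the groups overlapped. Of the 97 other genes listed below, among them other ligands, 25 were also lower in every morphant and 2 higher. By edgeR's quasi-likelihood test with Benjamini-Hochberg adjustment over 17803 genes, 0 of the 9 tested members passed the threshold of 0.05, where 0.0281% of all tested genes did. DESeq2 also called 0 members, where it called 1.56% of genes. At an unadjusted edgeR p under 0.05, 1 member was lower, tcf7, and 0 were higher, against 5.19% of all tested genes lower and 4.47% higher. The groups did not overlap for 3 of 9 members, each lower in morphants, where 9.18% of all tested genes lay lower in every morphant and 7.77% higher. The median log2 fold change of the 9 members was −0.42, against 0.12 for all tested genes, the value against which each change is to be read.

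**Figure D1:**
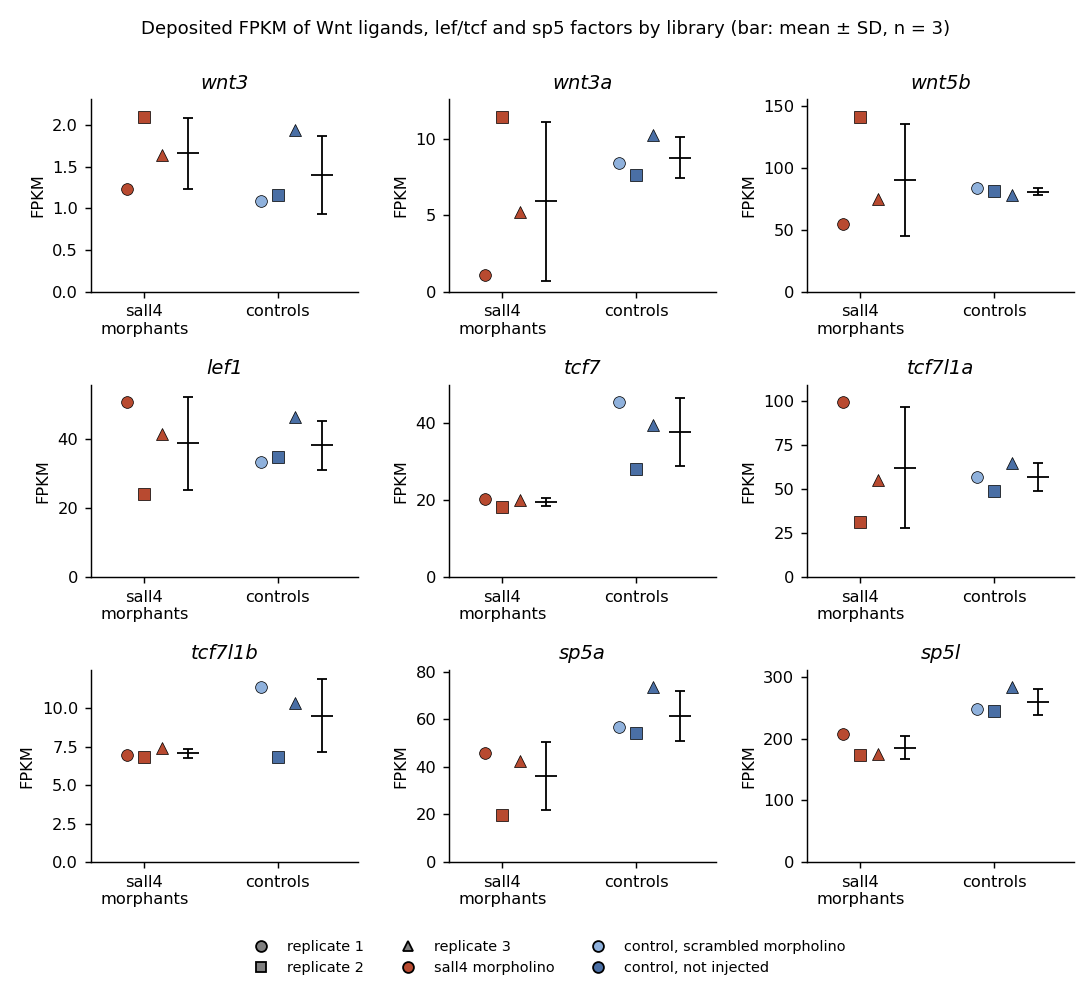
Deposited FPKM (fragments per kilobase of gene, scaled for depth) of the 9 tested members, 1 panel per gene, with the 3 sall4 morphant libraries left and the 3 controls right; the bar is the mean ± SD. Morphants lie below controls without overlap for tcf7, sp5a and sp5l, and the morphants are far apart for wnt3a, wnt5b and tcf7l1a.

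Among the ligands, wnt5b was by far the most abundant per length. It averaged 90.2 ± 45.2 FPKM in morphants and 80.8 ± 2.73 FPKM in controls (SD, n = 3 each). The canonical ligand wnt3a stood at 5.90 ± 5.20 FPKM in morphants and 8.77 ± 1.32 FPKM in controls, and wnt3, a related canonical ligand, at 1.66 ± 0.43 FPKM in morphants and 1.40 ± 0.47 FPKM in controls. In every library wnt5b supplied most of the summed FPKM of these ligands, 91.3% to 95.9% in morphants and 86.5% to 90.2% in controls.

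The wnt3a transcript (ENSDARG00000058822) had 1.12 CPM in morphant 1, from 17 counts, 11.9 CPM in morphant 2 and 5.18 CPM in morphant 3, against 8.45, 7.82 and 10.4 CPM in controls 1, 2 and 3. Morphants 1 and 3 lay below every control and morphant 2 above every control, so the groups overlapped. Morphant 2 held 10.6-fold more wnt3a than morphant 1. The SD of its log2 CPM among morphants, 1.68, was larger than that of 96.6% of tested genes, and was 0.21 among controls. The log2 fold change was −0.55 (SE 0.67, 95% interval −2.09 to 1.00, edgeR adjusted p = 0.76). Its size rested on single libraries: it was −1.48 without morphant 2 (adjusted p = 0.082) and −0.06 without morphant 1 (adjusted p = 0.98), and adjusted p ranged from 0.016 to 0.99 over 22 alternatives.

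The wnt5b transcript (ENSDARG00000102464) had 104, 276 and 141 CPM in morphants 1, 2 and 3, against 157, 156 and 149 CPM in controls 1, 2 and 3. The controls were nearly equal, and the morphants lay on both sides of them in the same order as for wnt3a. The log2 fold change of 0.17 (SE 0.37, 95% interval −0.68 to 1.02, edgeR adjusted p = 0.86) turned to −0.35 without morphant 2. Epidermal markers, 7 of 7 detected, had summed levels of 6497, 12639 and 5482 CPM in morphants 1 to 3 and 9820 to 14243 CPM in controls. Their sum was likewise highest in morphant 2, but there it lay within the control range, and it was lowest in morphant 3. The groups overlapped for each of these 7 markers, and epcam and tp63 were lowest in morphant 2. Their part in the ligand values was not tested.

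The wnt3 transcript (ENSDARG00000038990) had low counts, and its mean control FPKM lay at percentile 28.2 of all tested genes. It had 26, 76 and 55 counts or 1.71, 2.97 and 2.24 CPM in morphants 1, 2 and 3, against 1.50, 1.62 and 2.69 CPM in controls 1, 2 and 3. The groups overlapped, and the log2 fold change was 0.25 (SE 0.41, 95% interval −0.69 to 1.19, edgeR adjusted p = 0.82). Its sign turned under 2 of 22 alternatives. Relative to wnt5b in the same library, which removes the scaling between libraries, wnt3a was lower in each morphant, at 0.020, 0.081 and 0.069 of the wnt5b FPKM in morphants 1, 2 and 3 against 0.101, 0.094 and 0.131 in controls 1, 2 and 3. The ratio of wnt3a to a gene was lower in every morphant for 15.6% of the other tested genes, so the separation from wnt5b is one of many.

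The 2 rows named wnt8a were listed at or next to 0. ENSDARG00000052910 had 0 counts in each morphant, and 2 counts in control 3 and 0 in the other controls, while ENSDARG00000078507 had 0 counts in all 6 libraries. A count of 0 allows up to 3 counts, or 0.117 to 0.197 CPM per morphant library and 0.0733 to 0.148 CPM per control library (counting error only). In zebrafish wnt8a is a classical tailbud ligand made from a locus with a pair of coding units, and in the RefSeq table of another assembly, GRCz12tu, wnt8a and wnt8-2 occupy the same interval. How reads that fall in both overlapping genes were counted is not given in the sources used here. The near-zero counts were therefore not read as a level of wnt8a transcript, and no fold change is given.

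Of the Lef/Tcf genes, lef1 and tcf7l1a had similar means in both groups with wide spread among morphants, and tcf7 was measured lower in all morphants. The lef1 transcript (ENSDARG00000031894) had 224, 109 and 181 CPM in morphants 1, 2 and 3, against 146, 156 and 205 CPM in controls 1, 2 and 3. Morphant 1 lay above and morphant 2 below every control. The log2 fold change was 0.02 (SE 0.33, 95% interval −0.73 to 0.77, edgeR adjusted p = 0.99) and its sign turned under 10 of 22 alternatives, so no direction is given.

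The tcf7 transcript (ENSDARG00000038672), which encodes an activating partner of beta-catenin, had 38.2, 35.2 and 37.1 CPM in morphants 1, 2 and 3. In controls 1, 2 and 3 it had 84.9, 53.6 and 74.7 CPM. The morphants were almost equal and all lay below the lowest control, which was the non-injected control 2. The SD of log2 CPM was 0.06 among morphants, smaller than in all but 1.21% of tested genes, and 0.34 among controls. The mean in morphants was 0.518 times that in controls. This gave a log2 fold change of −0.95 (SE 0.27, 95% interval −1.57 to −0.33, edgeR adjusted p = 0.33, unadjusted p = 0.0076). DESeq2 gave −0.96 with an adjusted p of 0.12.

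Since every morphant lay below every control, leaving libraries out could hardly turn the sign for tcf7. The tcf7 estimate kept its sign under all 22 alternatives, between −1.21 and −0.81. Without morphant 2, the library in which long genes ran high, it was −0.94 and passed (edgeR adjusted p = 0.047), as 8.46% of all tested genes then did. With the length trend also removed it passed as well (adjusted p = 0.046, with 5.75% of genes called), and so it did with voom and library quality weights, a fit that called 39.4% of genes. With the length trend removed and all libraries kept it was −1.0 (adjusted p = 0.18), and adjusted p over the 22 alternatives ran from 0.00086 to 0.99. Some markers of several other cell types also lay apart between the groups, though edgeR called 0 in each marker list. Over all tested genes 9.18% were lower and 7.77% higher in every morphant, and DESeq2 called 1.56% of genes. Neural crest markers, 6 of 6 detected but mitfa under 1 CPM in every library, summed to 152 to 223 CPM in morphants and 315 to 351 CPM in controls. Of the 5 that were tested 4 were lower in every morphant, and tfap2a overlapped (log2 fold change −0.04). The list's median log2 fold change was −1.04. DESeq2 called sox10 and snai1b lower, and edgeR did not (edgeR adjusted p = 0.18 and 0.22). Caudal neural markers, 8 of 8 detected, summed to 973, 584 and 800 CPM in morphants 1 to 3 against 1126, 1182 and 1135 CPM in controls 1 to 3. Of these, 5 were lower in every morphant, with nkx1.2la and elavl3 called by DESeq2 but not by edgeR (edgeR adjusted p = 0.21 and 0.25). The genes sox2, neurog1 and olig2 overlapped between groups, with log2 fold changes of 0.01, 0.44 and −0.61.

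Notochord and floor plate markers, 6 of 6 detected, summed to 472 to 641 CPM in morphants and 692 to 1153 CPM in controls. Much of that sum was col2a1a, whose groups overlapped, and of the 6 only foxa2 and noto were lower in every morphant, with log2 fold changes of −0.03 for shha and 0.25 for tbx2b. Blood and endothelial markers, 10 of 10 detected, summed to 1600, 522 and 802 CPM in morphants 1 to 3 and 322 to 570.1 CPM in controls. Their median log2 fold change of 0.89 lay between a set of higher genes and a set whose groups overlapped. Of the 10 genes, 5 were higher in every morphant, gata1a and 4 globin genes. DESeq2 called hbbe2 and hbae5, and edgeR did not (edgeR adjusted p = 0.33 and 0.38). The groups overlapped for tal1, lmo2, etv2, kdrl and fli1a, with log2 fold changes of −0.11, 0.27, −0.22, 0.06 and 0.06. In the scrambled control 1 gata1a had 0.77 CPM, against 9.74 and 9.73 CPM in controls 2 and 3. For hbbe1.1 these values were 9.22 CPM against 82.6 and 72.8 CPM. Somite and muscle markers summed to 1850, 536 and 1170 CPM in morphants 1 to 3 against 556, 1027 and 700 CPM in controls 1 to 3. Much of that sum was myf5, whose groups overlapped. In every morphant actc1b was higher (log2 fold change 1.44) and desma lower (−1.42), and the rest of this list overlapped. The part of these cell types in the tcf7 value was not tested, and in a tissue piece fewer cells of a type and less RNA per cell cannot be told apart.

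**Figure D2:**
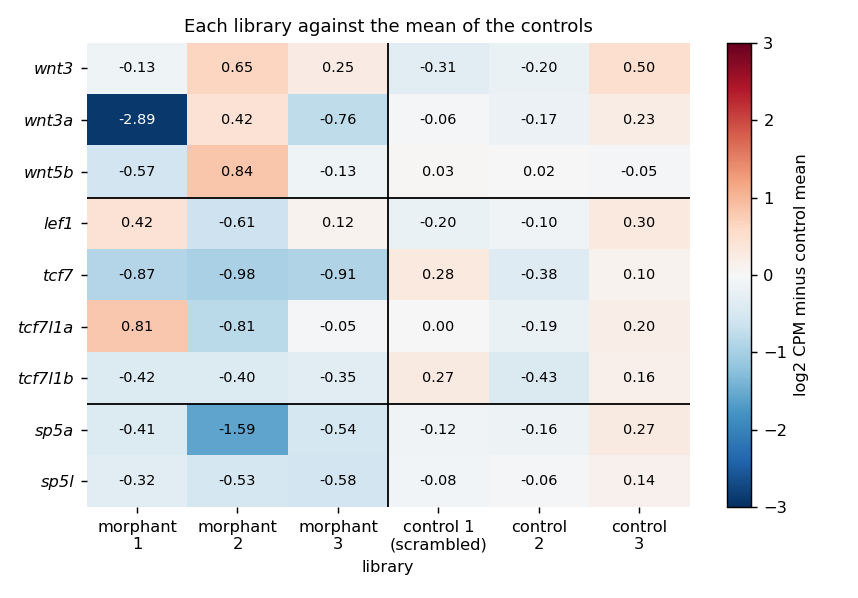
Log2 CPM of each member in each library minus the mean of the 3 controls, with morphants left and controls right of the line and genes grouped as ligands, lef/tcf and sp5 factors. Morphant 1 is low for wnt3a (−2.89) and high for tcf7l1a (0.81), morphant 2 is low for sp5a (−1.59) and high for wnt5b (0.84), and tcf7 is between −0.98 and −0.87 in all morphants.

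The tcf7l1a transcript (ENSDARG00000038159), which encodes the repressor lost in the headless mutant, had 283, 91.9 and 155 CPM in morphants 1, 2 and 3, against 161, 140.5 and 184 CPM in controls 1, 2 and 3. As for lef1, morphant 1 lay above and morphant 2 below every control. Morphant 1 held 3.08-fold more than morphant 2. The log2 fold change was 0.13 (SE 0.40, 95% interval −0.80 to 1.05, edgeR adjusted p = 0.91), and it turned to −0.38 without morphant 1. The summed tailbud markers given above also stood highest in morphant 1 and lowest in morphant 2. Much of that sum was msgn1, at 8006, 2141 and 4301 CPM in morphants 1, 2 and 3. Of the listed markers only cyp26a1 had another order, with 224, 300 and 217 CPM in morphants 1, 2 and 3. The part of these markers in the lef1 and tcf7l1a values was not tested.

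The second repressor gene, tcf7l1b (ENSDARG00000007369), had 32.8, 33.2 and 34.4 CPM in morphants 1, 2 and 3, against 53.0, 32.6 and 49.0 CPM in controls 1, 2 and 3. The morphants were again nearly equal (SD of log2 CPM 0.04, smaller than in all but 0.51% of tested genes), but control 2 lay below them. The log2 fold change was −0.42 (SE 0.28, 95% interval −1.06 to 0.21, edgeR adjusted p = 0.62), and it was −0.08 with the length trend removed and morphant 2 left out.

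The make-up of the Lef/Tcf transcripts was described on the FPKM scale, which is per length and within 1 library, without a test. The share of tcf7 in the summed FPKM of these members was 11.4%, 22.6% and 16.1% in morphants 1, 2 and 3, against 30.9%, 23.7% and 24.6% in controls 1, 2 and 3. All morphants lay below all controls, though morphant 2 and control 2 lay close together. The share of tcf7l1a was 56.0%, 39.0% and 44.4% in morphants 1, 2 and 3 and 38.7% to 41.1% in controls, and that of lef1 was 28.7% to 33.6% in morphants and 22.7% to 29.5% in controls. That of tcf7l1b was 3.92% to 8.50% in morphants and 5.76% to 7.72% in controls. For each of these genes the shares overlapped between the groups.

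The FPKM ratio of lef1 to tcf7 was higher in every morphant, at 2.51, 1.33 and 2.09 in morphants 1, 2 and 3 against 0.74, 1.25 and 1.18 in controls 1, 2 and 3. The ratio of tcf7l1b to tcf7 was also higher, at 0.344, 0.377 and 0.371 in morphants 1, 2 and 3 against 0.250, 0.243 and 0.262 in controls 1, 2 and 3. Within each group these values varied little. Of the other tested genes, 45.3% had a ratio to tcf7 that was higher in every morphant, so these ratios restate the low level of tcf7. The ratio of lef1 to tcf7l1a overlapped, at 0.68 ± 0.14 in morphants and 0.68 ± 0.08 in controls (SD, n = 3 each).

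**Figure D3:**
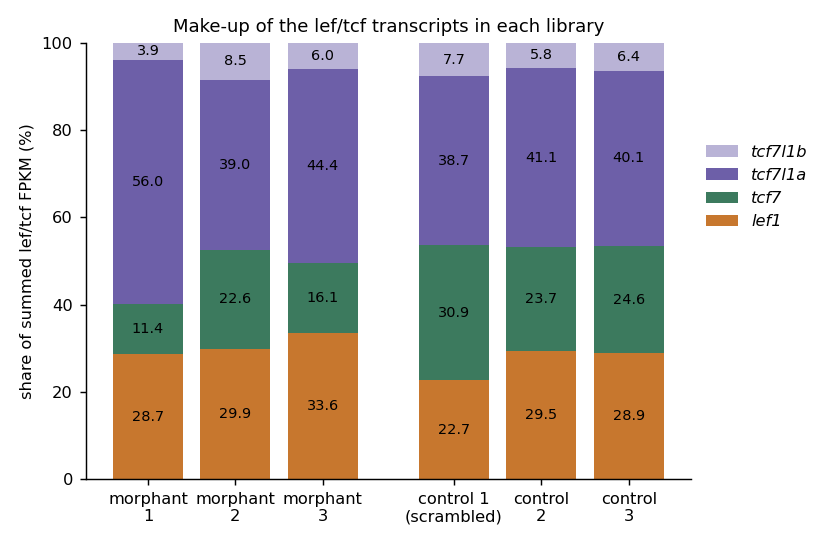
Share of each gene in the summed FPKM of lef1, tcf7, tcf7l1a and tcf7l1b, in percent, for each of the 3 sall4 morphant libraries (left) and 3 control libraries (right). The tcf7 share is 11.4% to 22.6% in morphants and 23.7% to 30.9% in controls.

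Both sp5 genes were measured lower in every morphant. The gene sp5l (ENSDARG00000115868) was the most abundant member per length, at 186 ± 18.8 FPKM in morphants and 259 ± 21.1 FPKM in controls (SD, n = 3 each). It had 394, 340 and 329 CPM in morphants 1, 2 and 3, against 466, 472 and 540.4 CPM in controls 1, 2 and 3. The highest morphant lay well under the lowest control. For sp5l the log2 fold change was −0.48 (SE 0.24, 95% interval −1.03 to 0.07, edgeR adjusted p = 0.57), and it stayed between −0.62 and −0.41 over the 22 alternatives.

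Its paralogue sp5a (ENSDARG00000076571) had 131, 57.3 and 119 CPM in morphants 1, 2 and 3, against 160, 155 and 209 CPM in controls 1, 2 and 3. Morphant 2 stood far below the other 2 morphants. For sp5a the log2 fold change was −0.77 (SE 0.35, 95% interval −1.58 to 0.04, edgeR adjusted p = 0.53). Without morphant 2 it was −0.50 (adjusted p = 0.13), and over the 22 alternatives it ran from −0.98 to −0.33. The FPKM ratio of sp5a to sp5l was 0.221, 0.113 and 0.243 in morphants 1, 2 and 3 against 0.229, 0.220 and 0.259 in controls 1, 2 and 3. The pair thus kept its balance in morphants 1 and 3, and sp5a was low relative to sp5l in morphant 2.

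**Figure D4:**
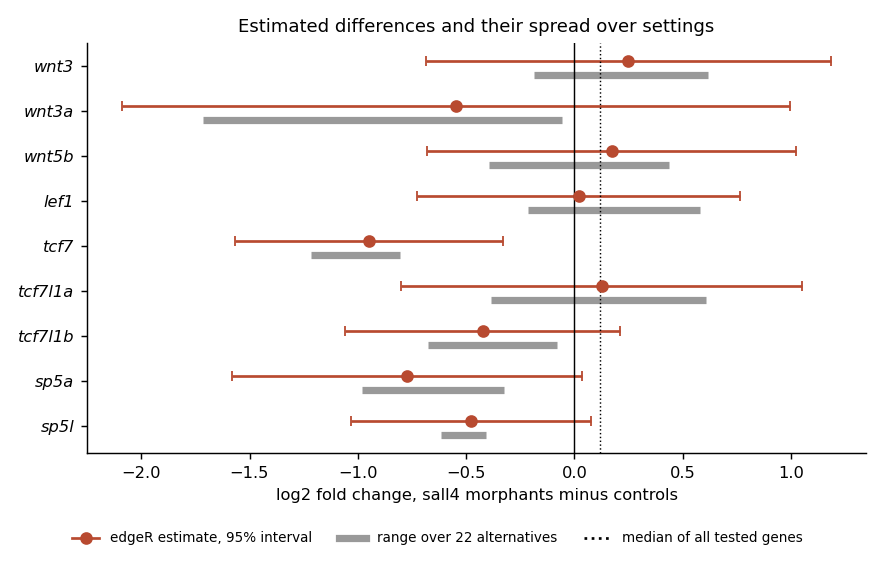
Log2 fold change of each tested member, sall4 morphants minus controls, from edgeR with its 95% interval (points and bars), the range over 22 alternatives (grey) and the median of all tested genes (dotted line, 0.12). Only the interval of tcf7 (−1.57 to −0.33) lies wholly below 0.

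On the FPKM scale the order of levels in morphants was sp5l, wnt5b, tcf7l1a, lef1, sp5a, tcf7, tcf7l1b, wnt3a and wnt3, and in controls sp5l, wnt5b, sp5a, tcf7l1a, lef1, tcf7, tcf7l1b, wnt3a and wnt3. By these means only sp5a differed in rank relative to the rest, at 36.0 ± 14.3 FPKM in morphants and 61.4 ± 10.4 FPKM in controls. In morphants sp5a and lef1 (38.9 ± 13.5 FPKM) did not differ beyond their spread, and in morphant 3 sp5a (42.6 FPKM) stood above lef1 (41.7 FPKM), so this difference in rank is not larger than the spread. In controls the neighbours sp5a and tcf7l1a (56.7 ± 7.80 FPKM), lef1 (38.3 ± 7.06 FPKM) and tcf7 (37.7 ± 8.82 FPKM), and tcf7l1b (9.51 ± 2.38 FPKM) and wnt3a did not differ beyond their spread. In morphants tcf7 stood at 19.5 ± 1.09 FPKM and tcf7l1b at 7.07 ± 0.30 FPKM. Single morphants also broke the order of the means. In morphant 1 tcf7l1a (99.1 FPKM) stood above wnt5b (54.6 FPKM), and in morphant 2 wnt3a (11.4 FPKM) stood above tcf7l1b (6.85 FPKM).

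Across all tested genes, long genes ran low in morphant 1 and high in morphant 2. Among the morphants, lef1 and tcf7l1a, at 2.34 and 1.51 times the median length of all genes, were highest in morphant 1 and lowest in morphant 2. The short wnt3a, at 0.54 times the median, was lowest in morphant 1 and highest in morphant 2. The order of lef1 was shared by sp5a, also longer than the median, and that of wnt3a by wnt3, also shorter. The longest member, tcf7l1b, differed little among the morphants, and its log2 fold change was smaller in size with the length trend removed. The part of gene length in the values of these members was not tested. With the trend removed the log2 fold changes were −0.39 for wnt3a, 0.23 for lef1, 0.24 for tcf7l1a, −0.27 for tcf7l1b, −0.67 for sp5a and −0.53 for sp5l, none of them past the edgeR threshold.

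The genes nearest to a member in pattern were those with the smallest Euclidean distance of centred log2 CPM over the 6 libraries, among 14016 genes whose average log2 CPM was 1 or more. For tcf7 these were sema3fa (distance 0.21), entpd2a.2 (0.22) and isl1 (0.23), against a median distance of 1.68. For sp5l they were dtx4a (0.12), trim105 (0.16) and CR354588.1 (0.18), and for lef1 rmi2, BX276180.4 and CR589882.1 (0.17 each), with median distances of 1.27 and 1.28. For wnt3a they were LO018148.1 (0.22), ism2a (0.41) and arhgap29a (0.44), against a median of 2.84. No relation between these genes was examined.

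Other genes of the Wnt pathway and relatives of the members were followed in 6 lists of 121 names, of which 97 genes were tested. The 97 include 10 other sp factors and, among the Wnt targets, sall4 itself. Shares over the 97 are thus not those of Wnt pathway genes alone. By edgeR 0 of the 97 passed over all genes, where 0.0281% of all genes did, and at an unadjusted p under 0.05 there were 18 lower and 1 higher, against 5.19% and 4.47% of all genes. DESeq2 called 1 lower, the antagonist gene notum1a, where it called 1.56% of all genes. The median log2 fold change was −0.28, with 69.1% of the 97 below 0, where the median of all tested genes was 0.12 and 41.8% were below 0. Without morphant 2 edgeR called 9 of 99 lower (wnt10a, lrp6, lgr4, ctnnb1, ctnnb2, tnksb, tle2b, axin2 and notum1a) and rspo1 higher, in a fit that called 8.46% of all genes. With the length trend also removed, 3 of 99 were called lower (lrp6, ctnnb2 and notum1a) and rspo1 higher, with 5.75% of all genes called. Without morphant 1 instead, edgeR called 0 of 100, in a fit that called 0.102% of all genes. At an unadjusted edgeR p under 0.05 there were then 9 lower and 3 higher, where 954 of all 18548 tested genes were lower and 1358 higher. The counts over these lists thus depended on which morphant was left out. The target gene axin2 had 23.8, 137 and 40.3 CPM in morphants 1, 2 and 3 and 57.8 to 71.5 CPM in controls. Its log2 fold change with all libraries was 0.07 (edgeR adjusted p = 0.97). With all libraries, morphants lay below all controls for 25 of the 97 genes and above them for 2. Among all tested genes 9.18% were lower and 7.77% higher in every morphant. The list counts below are to be read against these shares and those at an unadjusted p under 0.05. In 20 of those 25 the non-injected control 2 was the lowest control, and so the closest to the morphants. It was the lowest control in 37.9% of all tested genes. Those were not chosen for lying lower in every morphant, as the 25 were, so these shares are not like for like.

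Nuclear partners of Lef/Tcf, a list that also held the Lef/Tcf gene tcf7l2, had the most genes with a low p. Of 15 tested, 7 were lower at an unadjusted p under 0.05, with a median of −0.38. The co-activator gene bcl9, which links beta-catenin to Pygopus, had 208 ± 12.7 CPM in morphants and 368 ± 96.5 CPM in controls (log2 fold change −0.82, SE 0.28, edgeR adjusted p = 0.40). The Groucho-type co-repressor gene tle2b had 13.5 ± 2.51 CPM in morphants and 25.0 ± 4.80 CPM in controls (−0.88, SE 0.29, adjusted p = 0.40), and its relative tle2c had 0.45 ± 0.25 CPM in morphants and 1.33 ± 0.24 CPM in controls (−1.53, SE 0.51, adjusted p = 0.40). The 15 genes had a median of 2.45 times the median length of all genes, and lengths varied from 0.50 times for tle2c and 0.83 times for tle5 to 3.70 times for bcl9 and 4.32 times for chd8. With the length trend removed 5 of 15 were lower, where 6.32% of all tested genes were, and the list's median was −0.23, where that of all tested genes was 0.10.

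Of 20 tested cytoplasmic components 2 were lower at an unadjusted p under 0.05, with a median of −0.37. The beta-catenin gene ctnnb1 had 888, 1262 and 858 CPM in morphants 1, 2 and 3, against 1988, 1177 and 1987 CPM in controls 1, 2 and 3. Control 2 lay below morphant 2, so the groups overlapped (log2 fold change −0.78, SE 0.32, edgeR adjusted p = 0.50). The second beta-catenin gene ctnnb2 (−1.13, SE 0.50), the signal relay genes dvl2 (−0.59, SE 0.26) and dvl3b (−0.91, SE 0.41) and the tankyrase gene tnksa (−0.66, SE 0.32) had edgeR adjusted p-values of 0.51 to 0.56. The groups also overlapped for ctnnb2, with 296 CPM in morphant 2 and 187 CPM in control 2, and for dvl3b. With a library left out ctnnb2 ran from −1.73 to −0.86 and ctnnb1 from −0.996 to −0.66. Without morphant 2 edgeR called ctnnb2 (−1.73, adjusted p = 0.039) and ctnnb1 (−0.996, adjusted p = 0.0487). With the length trend also removed ctnnb2 still passed (−1.48, adjusted p = 0.047) and ctnnb1 did not (−0.77, adjusted p = 0.078).

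Among 26 tested receptor and R-spondin genes 4 were lower and 1 higher at an unadjusted p under 0.05. The higher one was rspo1, which encodes a secreted enhancer of Wnt signalling, at 4.31 ± 0.97 CPM in morphants and 1.44 ± 0.60 CPM in controls, without overlap (log2 fold change 1.58, SE 0.42, edgeR adjusted p = 0.29, DESeq2 adjusted p = 0.052). Its relative rspo2 stood at 14.2 ± 3.71 CPM in morphants and 25.8 ± 6.26 CPM in controls (−0.86, SE 0.32, edgeR adjusted p = 0.45). The R-spondin receptor gene lgr4 (−0.83, SE 0.31), the co-receptor gene lrp6 (−1.34, SE 0.48) and the receptor gene fzd1 (−1.30, SE 0.44) had edgeR adjusted p-values of 0.40 to 0.44. The lrp6 groups overlapped, with 97.0 CPM in morphant 2 and 88.1 CPM in control 2. Without morphant 2, where edgeR called lrp6, lgr4 and rspo1, the value for lrp6 was −2.03. With other libraries left out in turn it reached −1.06.

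**Figure D5:**
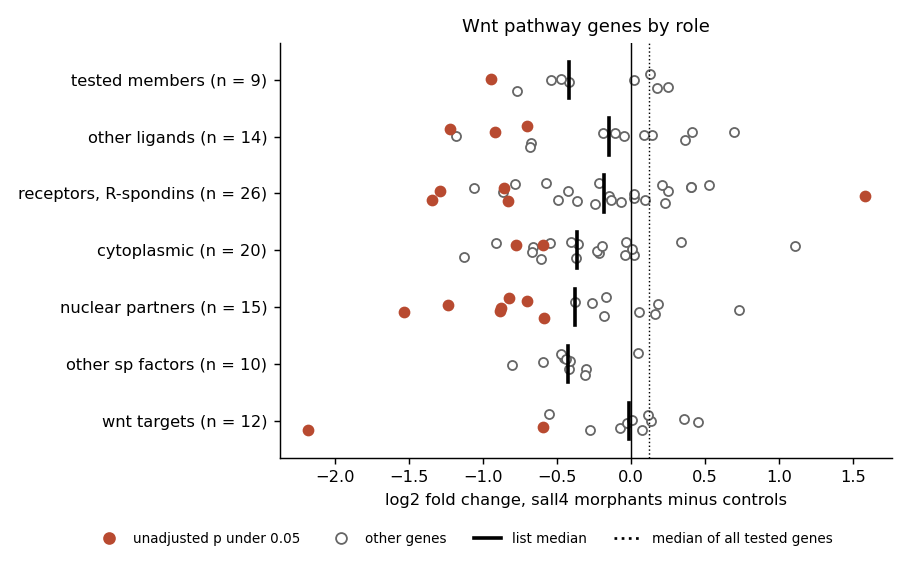
Log2 fold changes, sall4 morphants minus controls, of the 9 tested members and of the 97 other listed genes by role. Each point is 1 gene, filled where the unadjusted edgeR p was under 0.05. Bars are list medians, and lines mark 0 and the median of all tested genes (dotted). Nuclear partners have 7 filled points, all below 0, and rspo1 is the filled point on the right.

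The list of other ligands also held wls (log2 fold change 0.14), a Wnt secretion gene and not a ligand. Of its 14 tested genes 3 were lower at an unadjusted edgeR p under 0.05 and 0 were higher, with a median of −0.15. The ligand gene wnt10a had 3.81, 10.5 and 7.71 CPM in morphants 1, 2 and 3 and 13.96 ± 1.45 CPM in controls (SD, n = 3; log2 fold change −0.92, SE 0.39, edgeR adjusted p = 0.51). It was −1.28 and passed without morphant 2 (edgeR adjusted p = 0.049), and it was −0.61 without morphant 1 (adjusted p = 0.47). Counts of wnt9a were low, at 5, 22 and 17 in morphants 1, 2 and 3 against 34, 23 and 71 in controls 1, 2 and 3. The ligand genes wnt4 (−0.71, SE 0.30), wnt5a (−0.67, SE 0.32), wnt9a (−1.23, SE 0.48) and wnt9b (−1.19, SE 0.59) had edgeR adjusted p-values of 0.47 to 0.56. All but wnt9b were lower in every morphant, wnt9a by little between morphant 2 (0.86 CPM) and control 2 (1.13 CPM). Single libraries weighed on some of these values, since wnt5a was −0.35 without control 1, and wnt9b was −2.11 without morphant 3 and −0.77 without morphant 2.

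Of 10 tested other sp factors 0 had an unadjusted edgeR p under 0.05, though 4 were lower in every morphant and the median was −0.43. The gene sp8a, known from fin outgrowth, had 361 ± 43.4 CPM in morphants and 495 ± 29.7 CPM in controls (log2 fold change −0.46, SE 0.24, edgeR adjusted p = 0.58), close to the change of sp5l. The genes sp6 (−0.81, SE 0.37) and sp3a (−0.60, SE 0.29) had overlapping groups, and sp6 was −0.51 without control 1.

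Of 12 listed Wnt target genes, sall4 among them, 2 were lower at an unadjusted edgeR p under 0.05 and the median was −0.01. The secreted antagonist gene notum1a had 6.17, 11.9 and 14.2 CPM in morphants 1, 2 and 3, against 57.9, 33.6 and 55.8 CPM in controls 1, 2 and 3 (log2 fold change −2.19, SE 0.39, edgeR adjusted p = 0.16, DESeq2 adjusted p = 0.00016). With all libraries this difference passed the threshold by DESeq2 and not by edgeR. The antagonist gene nkd1 had 87.3 ± 3.63 CPM in morphants and 132 ± 25.3 CPM in controls (−0.60, SE 0.26, edgeR adjusted p = 0.51), and the T-box gene tbx6 had 1500 ± 355 CPM in morphants and 2204 ± 208 CPM in controls (−0.56, SE 0.28, edgeR adjusted p = 0.57).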

How the data were processed

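Whole-number counts per Ensembl gene were deposited for 6 libraries. Build GRCz11 and the tools DESeq2 1.38.3 and STAR 2.7.10a appear, with no role stated, in the submitters' processing notes. Which counter, strand setting and annotation were used is not given in the sources, so overlapping and antisense genes are uncertain. The deposited FPKM values are those counts divided by a length and 1 scale per sample, within 1% for all 19727 genes checked, and the lengths used here come from that ratio. Genes were filtered by edgeR's filterByExpr, scaled by TMM and fitted with the group as only term (edgeR 4.0.16, R 4.3.3, quasi-likelihood F test, two-sided, Benjamini-Hochberg over all tested genes). The SE is the log2 fold change divided by the square root of F. Alternatives used DESeq2 1.42.0 and limma 3.58.1. Among the 22 alternatives, leaving out control 1 and keeping only non-injected controls use the same libraries and are counted separately. The fits were also run on simulated counts. Those counts held no gene length trend and gave both groups the same spread, so they cannot show how the fits handle either. Figures were drawn with matplotlib 3.10.9. All members are named. Of each other list the tested genes with the smallest p are named, 5 where it has over 20 names and otherwise 3. Nearest genes in pattern were sought for wnt3a, wnt8a (not tested), lef1, tcf7 and sp5l. Members, lists and tests were chosen with earlier results of these data known. No sequences are shown.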

Additional observations from a re-analysis of the deposited data

How the results depend on the processing

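The number of members past the threshold, 0, was the same under 19 of 22 alternatives. It was 0 to 1 with a library left out (1, tcf7, without morphant 2), 1 (tcf7) with the length trend removed and morphant 2 left out, and 5 with voom and library quality weights, the last 2 added after the data were seen. The weighted fit called 7013 genes and gave a weight of 5.53 to morphant 3 and 0.136 to morphant 2. The count over all genes, 5, was 0 with a replicate block, a stricter count filter, unfiltered FPKM, non-injected controls only, the scrambled control only (1 library, taken to vary as the morphants do) or the length trend removed with a replicate block. It was 1 with library-size scaling, 12 and 22 on log2(FPKM + 1) and log2(FPKM + 0.1), 20 with the length trend removed, 28 with no count filter, 334 by DESeq2, 0 to 1534 with a library left out, and 1042 with the length trend removed and morphant 2 left out. Of the log2 fold changes near 0, lef1 was −0.027 with the block, −0.11 with library-size scaling, −0.027 on log2(FPKM + 1) with and without a filter and −0.029 on log2(FPKM + 0.1), −0.079 with non-injected controls only, and −0.21 to 0.24 with a library left out. For tcf7l1a the values were −0.020, −0.039, −0.016 and −0.019 in the first 4 of these, −0.11 with quality weights, and −0.38 to 0.41 with a library left out. For wnt5b they were −0.35 to 0.44 with a library left out, −0.39 with length removed and morphant 2 left out and −0.11 with quality weights, and for wnt3 −0.19 and −0.00098 in these last 2. For sall4, −0.03 in the main comparison, they were 0.14 with the scrambled control only, 0.19 and 0.13 with length removed without and with the block, −0.12 to 0.12 with a library left out, 0.45 with length removed and morphant 2 left out, and 0.094 with quality weights. The cause of these turns was not tested. The correlations of same-numbered deviations were −0.29, −0.10 and 0.16, and not every sample correlated best with its own number. Over so few libraries, with length trends among them, these values cannot show whether same-numbered samples belong together. The block is therefore not read as a paired result. Low counts limit wnt3, and also wnt3a in morphant 1 (17 counts). They also limit wnt9a and tle2c among the other named genes. The spread among morphants limits the wnt3a estimate, and nothing can be read at wnt8a.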
